A study of Mus musculus with 2 samples.

Results

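The 10 genes described here, Atf4, Ddit3, Chac1, Trib3, Asns, Psat1, Phgdh, Slc7a11, Hspa5 and Xbp1, belong to the integrated stress response and to the unfolded protein response that feeds into it. They were taken by symbol from the 23889 genes of an RNA sequencing experiment in E14 mouse embryonic stem cells (mESCs), and each symbol occurred once. One library came from E14 cells transfected with a control shRNA and 1 from E14 cells transfected with an USP21 shRNA, a short hairpin RNA against the deubiquitinase USP21. Below these are the control library and the knockdown library. Both were harvested after 3 days of knockdown. The cultures were feeder-free on gelatin with serum and LIF, and their medium also held GlutaMAX, non-essential amino acids and β-mercaptoethanol. The labels call the control genotype normal, give the line as derived from a 19/Ola mouse, and do not name the hairpin, so an effect of the hairpin sequence and an effect of losing USP21 cannot be told apart. The share of cells that took up the hairpin is not given either, and the RNA is that of the whole culture.

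In the integrated stress response, 4 kinases sense different insults (heme lack, double-stranded RNA, misfolded protein in the endoplasmic reticulum (ER) and uncharged tRNA) and phosphorylate the initiation factor eIF2α. Bulk translation then falls, while the ATF4 mRNA, held back by upstream reading frames in unstressed cells, is translated more. ATF4 protein, paired with C/EBP factors, activates genes for amino acid synthesis and uptake, tRNA charging and, when stress lasts, the factor CHOP (Ddit3). Because ATF4 is set largely by translation, the mRNA of its target genes carries information that the Atf4 mRNA does not.

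The measure was the FPKM value of each gene (fragments of a gene, scaled for transcript length and sequencing depth), and the ratio given throughout is the log2 of the FPKM with the USP21 shRNA over that in the control, each with 0.1 added. The added 0.1 makes the ratio of weakly expressed genes smaller than it would otherwise be. Each group has 1 library, so no difference has a replicate check and no test was made. Usp21 (chromosome 1, 171281945 to 171287991 of GRCm38) was at an FPKM of 26.2 in the control library and 3.49 in the knockdown library. All 10 embryonic stem cell markers listed were at an FPKM of 39.4 or more in both libraries. Their median log2 ratio was -0.26, or -0.09 with equal sums, and Nanog was at 467 and 258. Of 10 fibroblast markers 7 were below 1 in both libraries and Lum and Prrx1 were listed at 0, while Thy1 was at 17.3 and 5.29. Pdgfra went the other way, at 2.48 and 4.22 (log2 ratio 0.75), and Pdgfrb was at 1.65 and 1.14 (-0.49). The summed FPKM of the fibroblast markers was 22.4 in the control library and 11.5 in the knockdown library. The fall of this sum came from Thy1, and the part of these markers in the results was not tested. In such bulk samples fewer cells of a type and less RNA per cell cannot be told apart. The FPKM values summed to 613617 and 543206. The files give no counts. From the steps of a single fragment among 1439 genes at low values, the control library was about 1.24 times as deep. Among the 11927 genes with an FPKM of at least 1 in either library the median log2 ratio was 0.0031. Scaling both libraries to the same sum would add about 0.18 to each ratio, so a value between -0.18 and 0 is above 0 on that scale. The median of all genes rises by about as much, so a gene keeps its place beside that median.

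Of the transcription factors, Atf4 was the most abundant, at an FPKM of 136 in the control library and 170.3 in the knockdown library. It lies on chromosome 15 (80255184 to 80257541 of GRCm38, plus strand). Its log2 ratio was 0.33, and 21 of the 500 genes nearest to it in level had a ratio at least as high. These neighbours are used as a ruler for genes of like abundance, and the median ratio of this set was -0.14. Atf4 moved from the fourth place among the 10 genes with the control shRNA to the second with the USP21 shRNA, passing Asns and Psat1.

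Ddit3 encodes CHOP, a bZIP factor linked to cell death under lasting stress. Its FPKM was 7.32 in the control library and 9.70 in the knockdown library, a log2 ratio of 0.40, and 80 of its 500 neighbours were at least as high. On chromosome 10 (127290774 to 127296288, plus strand) its exons overlap those of Mars and Gm4189 on the opposite strand. Whether the authors counted by strand is not given in the sources used here. Mars, the methionyl-tRNA synthetase, was far more abundant, at 82.0 and 83.1. Reads from the overlap cannot be assigned without strand, and how much they contribute was not tested.

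Xbp1 encodes the factor of the IRE1 branch of the unfolded protein response, which becomes active when its mRNA is spliced in the cytoplasm. Its FPKM was 45.2 in the control library and 54.8 in the knockdown library. The log2 ratio was 0.28, with 56 of 500 neighbours at least as high. The gene lies on chromosome 11 (5520659 to 5525893, plus strand). A value per gene does not separate the spliced from the unspliced form. All 3 transcription factors were thus higher with the USP21 shRNA, each by less than 1.5-fold before any correction.

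**Figure D1:**
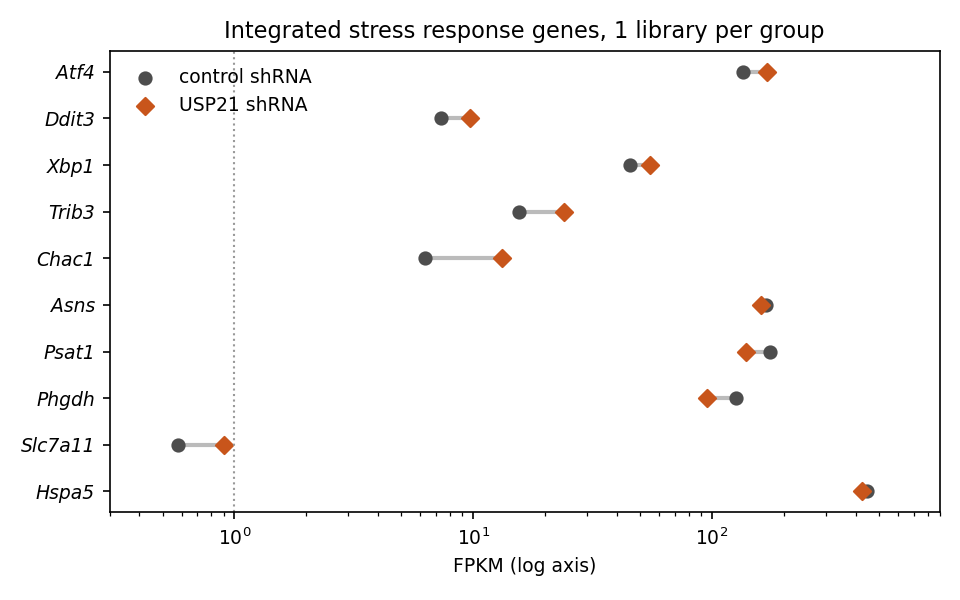
FPKM of the 10 genes (log axis) in the control shRNA library (circles) and the USP21 shRNA library (diamonds), with no error bars since each group has 1 library. The dotted line marks an FPKM of 1. Atf4, Ddit3, Xbp1, Trib3, Chac1 and Slc7a11 lie further right with the USP21 shRNA, Psat1 and Phgdh further left, and the points of Asns and Hspa5 nearly coincide.

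Most of the other genes are known targets of ATF4, which binds the C/EBP-ATF response element. The core of this element, TGATGNAAN, was searched on both strands in RefSeq promoter windows (GRCm38.p6, 250 bases before to 50 after each start), and all 10 genes had a window. Of 27025 genes with a window 4.50% held it. In lists described below it was held by 4 of 8 tRNA synthetase genes known as ATF4 targets, 3 of 11 partner and relay factors and 0 of 14 ER chaperones. Among the 10 genes it was present for 4 (Asns, Chac1, Slc7a11 and Trib3). The stretches that hold it are shown because the measurements of these genes ran apart, with Chac1 and Trib3 highest among the 10 and Asns near 0. They run 5′ to 3′ on the strand of the gene, with the fixed letters of the core in capitals and the variable ones in lower case. A core on the opposite strand appears as its reverse complement.
Asns (chr6:7693214-7693242, minus strand): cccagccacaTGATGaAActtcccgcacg
Chac1 (chr2:119351028-119351076, plus strand): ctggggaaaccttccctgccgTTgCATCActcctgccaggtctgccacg
Slc7a11 (chr3:50443633-50443699, minus strand): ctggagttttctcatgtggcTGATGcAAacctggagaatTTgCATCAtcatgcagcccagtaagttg
Trib3 (chr2:152344029-152344057, minus strand): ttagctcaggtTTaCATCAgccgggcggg

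The stretch of Slc7a11 holds 2 copies facing each other, at bases -66 to -58 and -48 to -40 from the RefSeq start. Both it and the Chac1 stretch, whose core lies at -194 to -186, overlap no annotated exon. The core of Asns lies at -23 to -15, and that of Trib3 at 14 to 22 after the start. Those 2 stretches overlap the 5′ end of annotated transcripts of their own genes in GENCODE M21. A match is a description of the letters, not evidence of binding in these cells, and the genes without a match may hold the element outside this window or in another form.

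Chac1 had the largest ratio of the 10 genes. It encodes a γ-glutamylcyclotransferase that degrades glutathione, and it is induced late in the ATF4 pathway. Its FPKM was 6.27 in the control library and 13.2 in the knockdown library, and with the added 0.1 the fold was 2.09 (log2 ratio 1.07). Of all genes tested 1.85% were at least as high, and of its 500 neighbours 4. With a pseudocount of 1 the log2 ratio was 0.97, and 0.9987 after correction for level (the trend of the ratio with abundance), so its place past 2-fold depends on these settings. Chac1 lies on chromosome 2 (119351229 to 119354381, plus strand), and none of its 31-base words occurs in another annotated gene.

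Trib3 encodes a pseudokinase that binds ATF4 and CHOP and dampens their activity. Its FPKM was 15.6 in the control library and 24.0 in the knockdown library. The fold was 1.54 (log2 ratio 0.62), and 22 of 500 neighbours were at least as high. Trib3 lies on chromosome 2 as well (152337422 to 152344032, minus strand), and it too shares no 31-base word with another gene. With the USP21 shRNA Chac1 passed Ddit3 in level, while Trib3 held the seventh place in both libraries.

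The enzymes of amino acid synthesis did not share that direction. Asns, the asparagine synthetase, is the standard readout of the ATF4 response to amino acid lack and carries the core shown above. Its FPKM was 168 in the control library and 161 in the knockdown library. The log2 ratio of -0.06 became 0.12 with both libraries scaled to the same sum, so it has no firm direction, and 188 of 500 neighbours were at least as high. Asns lies on chromosome 6 (7675169 to 7693254, minus strand).

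Phgdh and Psat1 encode the opening enzymes of serine synthesis from glycolysis, and both were lower with the USP21 shRNA. Phgdh (chromosome 3, 98313170 to 98339990, minus strand) was at 126 and 94.9, a log2 ratio of -0.41, and 59 of its 500 neighbours were at least as low. Psat1 (chromosome 19, 15904678 to 15947337, minus strand) was at 176 and 138, a log2 ratio of -0.34, with 99 of 500 neighbours at least as low. Neither reached 1.5-fold. Scaled to the same sum the ratios were -0.24 and -0.17. Phgdh shares 73.5% of its 31-base words with other annotated genes, 23 in all, and how such fragments were assigned is not given in the sources used here. For Psat1 that share was 3.56%. Psph, the last enzyme of the pathway and named here after its values were seen, was at 31.6 and 30.6 (log2 ratio -0.05).

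Slc7a11 encodes the carrier subunit of the cystine-glutamate exchanger and responds to both ATF4 and NRF2. At an FPKM of 0.578 in the control library and 0.900 in the knockdown library it was the lowest of the 10 genes and did not reach the limit of 1, so it enters no count. Its log2 ratio was 0.56. Among the 500 genes nearest in level, taken from those with an FPKM of at least 0.1 in either library, 78 were at least as high. The ratio was 0.27 with a pseudocount of 1 and 0.30 after correction for transcript length, since the annotated transcript has 9223 bases. Slc7a11 lies on chromosome 3 (49892526 to 50443614, minus strand).

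Hspa5 encodes BiP, the main Hsp70 chaperone of the ER lumen and a marker of the unfolded protein response. It was the most abundant of the 10 genes in both libraries, at an FPKM of 448 in the control library and 426 in the knockdown library. The log2 ratio was -0.07 and became 0.10 with equal sums, again without a firm direction, and 151 of 500 neighbours were at least as high. Hspa5 lies on chromosome 2 (34771970 to 34777547, plus strand). Its promoter window holds the ER stress response element, CCAAT and CCACG with 9 bases between them, which only 0.137% of genes with a window have on either strand. It was the only match among the 10 genes and lies at -65 to -47 from the RefSeq start, where the stretch overlaps the 5′ end of annotated Hspa5 transcripts in GENCODE M21. It is shown with both ends of the element in capitals.
Hspa5 (chr2:34772020-34772048, plus strand): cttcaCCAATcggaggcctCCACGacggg

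Of the 9 genes that reached an FPKM of 1, Chac1 was at least 2-fold higher with the USP21 shRNA, against 2.30% of all 11927 genes tested, and none was 2-fold lower (2.03% of all genes). At 1.5-fold, Chac1 and Trib3 were higher, against 7.77% of all genes, and again none was lower (6.46% of all genes). With equal sums the split of all genes was 443 higher and 153 lower at 2-fold in place of 274 and 242, and at 1.5-fold 1654 and 463 in place of 927 and 771, while the members' counts were the same. The median log2 ratio of the 9 genes was 0.28, against 0.0031 over all genes tested. Chac1, Trib3 and Atf4 lay above the 95th percentile of their own neighbours. The other genes lay within the range from the 5th to the 95th.

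**Figure D2:**
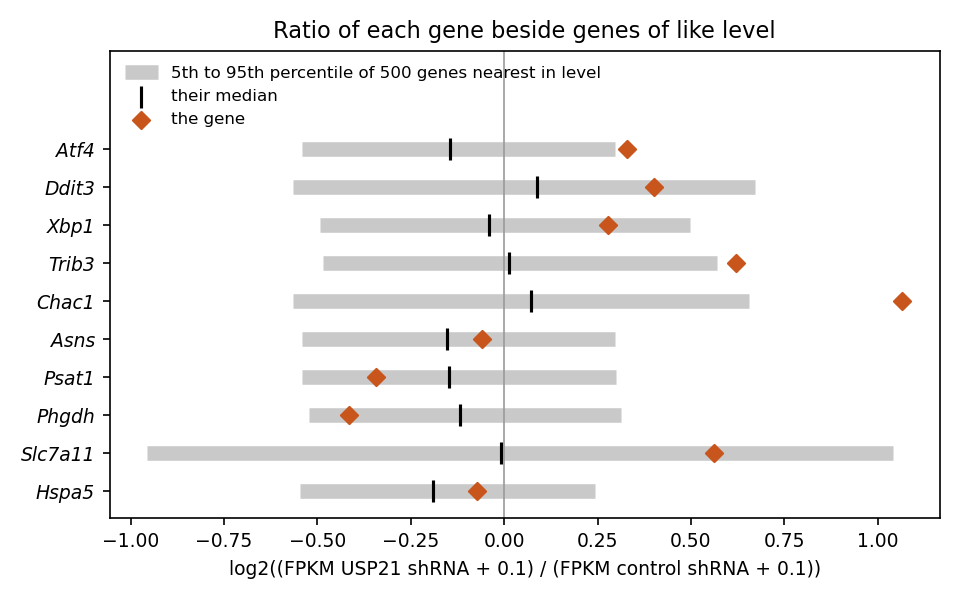
Log2 ratio of each gene (diamonds) beside the 500 genes nearest to it in level, drawn as a grey bar from their 5th to their 95th percentile with a tick at their median. Chac1 (1.07), Trib3 (0.62) and Atf4 (0.33) lie to the right of their bars. Psat1 and Phgdh lie in the left part of theirs, and Asns and Hspa5 slightly right of their ticks.

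In these libraries the ratio followed transcript length, with a Spearman rho of 0.31 over 11847 genes that are not independent replicates. The median was -0.16 in the fifth of genes with the shortest transcripts (up to 1619 bases) and 0.17 in the fifth with the longest (from 4780 bases). Ddit3, with 890 bases, lies among those shortest genes, where ratios ran low, and Chac1, with 1637, just above their limit. After subtraction of this trend the log2 ratios were 0.60 for Ddit3, 1.15 for Chac1, 0.67 for Trib3 and 0.40 for Atf4, each higher than before, and Ddit3 then also passed 1.5-fold. Of all 11847 genes, 838 were then at least 1.5-fold higher. Psat1 and Phgdh stayed lower, at -0.32 and -0.35. Ratios also ran low for abundant genes, with a median of -0.18 at mean levels of 100 or more, where Atf4, Asns, Psat1, Phgdh and Hspa5 lie.

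**Figure D3:**
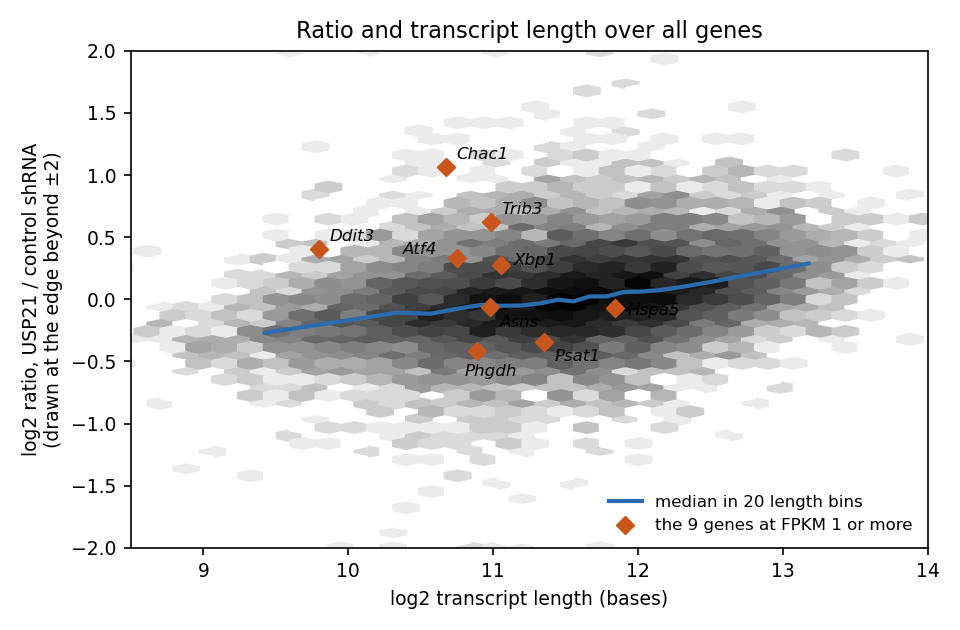
Log2 ratio against log2 transcript length for 11847 genes with an FPKM of at least 1 in either library (grey cells, darker for more genes), with the median in 20 length bins as a line and 9 of the 10 genes as diamonds. The line climbs from left to right, and Ddit3, Chac1, Trib3, Atf4 and Xbp1 sit above it while Phgdh and Psat1 sit below.

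Upstream of ATF4, none of 17 genes for the machinery that starts and ends the response was 1.5-fold apart between the libraries, except Eif2s2 with equal sums (0.60) or after correction for level (0.61). Most genes did the same, since 10229 of all 11927 tested were within 1.5-fold. At least 1.5-fold higher were 1654 of them with equal sums and 822 after correction for level. The 4 eIF2α kinases ranged from -0.22 for Eif2ak1 (the heme-regulated kinase, 30.9 and 26.4 FPKM) to 0.19 for Eif2ak4 (GCN2, the sensor of uncharged tRNA, 5.30 and 6.05). Eif2ak3, the ER kinase PERK, was at 8.56 and 8.11. The 8 subunits of eIF2 and of its exchange factor eIF2B had a median of -0.12, which was 0.05 with equal sums. Among them Eif2s2, the β subunit, stood highest at 0.42 (226 and 302 FPKM) and Eif2b4 lowest at -0.29. Of the phosphatase that reverses the modification, the stress-induced subunit Ppp1r15a (GADD34) was at 16.5 and 19.1 and the constitutive subunit Ppp1r15b at 41.6 and 45.0, log2 ratios of 0.21 and 0.11. Phosphorylation of eIF2α itself is a protein measurement and was not analysed here.

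Among partners of ATF4 and relay genes of the response, 10 of 11 listed reached an FPKM of 1, with a median log2 ratio of 0.38. Atf5, a bZIP factor translated by the same kind of upstream reading frames as Atf4, was highest at 20.1 and 33.4 FPKM (log2 ratio 0.73) and past 1.5-fold. With the length correction Nupr1 (0.67) and Atf3 (0.60) passed as well, and with equal sums 5 genes of the list did (Atf3, Atf5, Nupr1, Sesn2 and Stc2). Of all 11927 genes tested, 927 were at least 1.5-fold higher, and 1654 with equal sums. With the length correction it was 838 of 11847 genes. Sesn2, a brake on mTORC1, was at 34.8 and 50.9 (0.55). Nupr1 was at 15.0 and 20.6 (0.46) and Stc2 at 7.83 and 10.9 (0.47). Ddit4, another brake on mTORC1, was at 47.2 and 42.3 (-0.16), and Vegfa was lowest at -0.25. In all 6 genes were above 0 and 4 below, and at a limit of FPKM 5 the median of the list was 0.15.

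Most amino acid transporters were also higher in the knockdown library. Of 10 carriers 9 were above 0, with a median of 0.29, or 0.23 after correction for length. Slc6a9, a glycine carrier, was past 2-fold at 2.03 and 4.30 FPKM (log2 ratio 1.05), but under it with a pseudocount of 1 (0.81) and with the level correction (0.98). No other carrier passed 1.5-fold, except Slc38a1 and Slc1a4 with equal sums (0.60 for both). Within 1.5-fold were 10229 of all 11927 genes tested, and with equal sums 1654 were at least 1.5-fold higher. The exons of Slc6a9 overlap B4galt2, Ccdc24 and Gm17114 on the opposite strand. The abundant pair Slc3a2 and Slc7a5, which together carry large neutral amino acids, were at 112 and 137 (0.28) and at 97.6 and 117 (0.26). Slc38a2, the carrier that responds to amino acid lack, was at 70.6 and 82.9 (0.23), and Slc7a3 at 73.3 and 74.6 (0.03). Slc1a5, the glutamine carrier, was lowest at -0.10.

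Enzymes of amino acid and one-carbon synthesis had no common direction. Of 13 with an FPKM of at least 1, 6 were above 0 and 7 below, with a median of -0.05 that was 0.13 with equal sums. Gpt2, the mitochondrial alanine transaminase, was 2-fold higher at 8.94 and 18.1 FPKM (log2 ratio 1.01), and was just under 2-fold with a pseudocount of 1 (0.94) and after correction for length or level (0.97 for both). Abundant enzymes lay nearer 0, with Got1 at 0.15, Shmt2 at 0.10, Mthfd1 at -0.07 and Shmt1 at -0.29.

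The cytosolic tRNA synthetases, which charge tRNAs with their amino acids, were listed in 2 groups. For the 12 genes known as ATF4 targets (11 synthetases and the tRNA exporter Xpot) the median log2 ratio was 0.03 and 9 were above 0. Xpot was highest at 28.7 and 38.6 FPKM (0.43) and Tars lowest at -0.15, while Gars, Nars, Eprs and Aars, the most abundant, lay between -0.03 and 0.14. For the 9 other synthetases the median was -0.17 and all 9 were below 0, from -0.03 for Vars to -0.40 for Farsb (130 and 98.1 FPKM). With equal sums these medians were 0.21 and 0.0048, so the sign of the second list depends on the scale. None of the 21 genes passed 1.5-fold, except Xpot with equal sums (0.60). Of all 11927 genes tested, 10229 lay within 1.5-fold as well, and with equal sums 1654 were at least 1.5-fold higher. The lists also differ in median transcript length, 3601 against 2175 bases, and after correction for length the medians were 0.01 and -0.12. The difference between the lists was not tested.

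On the ER side, the median ratio of the chaperones was below that of the stress sensors, though single genes of the lists overlapped and the difference was not tested. The 16 chaperones and folding enzymes had a median of -0.15, with 12 below 0, and a median of 0.03 with equal sums. Many of them are abundant, where ratios ran low, and after correction for level the median was -0.05. Hsp90b1, the ER form of HSP90, was at 357 and 276 FPKM (-0.37), P4hb at 291 and 259 (-0.17), Canx at 293 and 282 (-0.06) and Calr at 285 and 284 (-0.0041). Dnajc3, the PERK inhibitor p58IPK, was lowest at 7.21 and 3.74 (-0.93), past 1.5-fold. It was also past 2-fold after correction for length (-1.04) or level (-1.0033). Ero1lb was highest at 0.48, or 0.65 with equal sums, which passes 1.5-fold. Of 14 genes of this list with a promoter window 7 held the ER stress response element. All 6 stress sensors and their proteases were above 0, with a median of 0.33, from 0.02 for Creb3 to 0.48 for Atf6 (8.81 and 12.3 FPKM). Atf6b was at 30.1 and 40.5 and Mbtps1, the site-1 protease, at 45.2 and 56.7. With equal sums Atf6 (0.66) and Atf6b (0.60) were past 1.5-fold higher, against 1654 of all 11927 genes tested. The transcripts of the sensors are long, and their median was 0.21 after correction for length and 0.33 after correction for level. The 12 genes of ER-associated degradation had a median of 0.04, between -0.42 for Selk and 0.43 for Os9. With equal sums Os9 was at 0.61, past 1.5-fold.

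**Figure D4:**
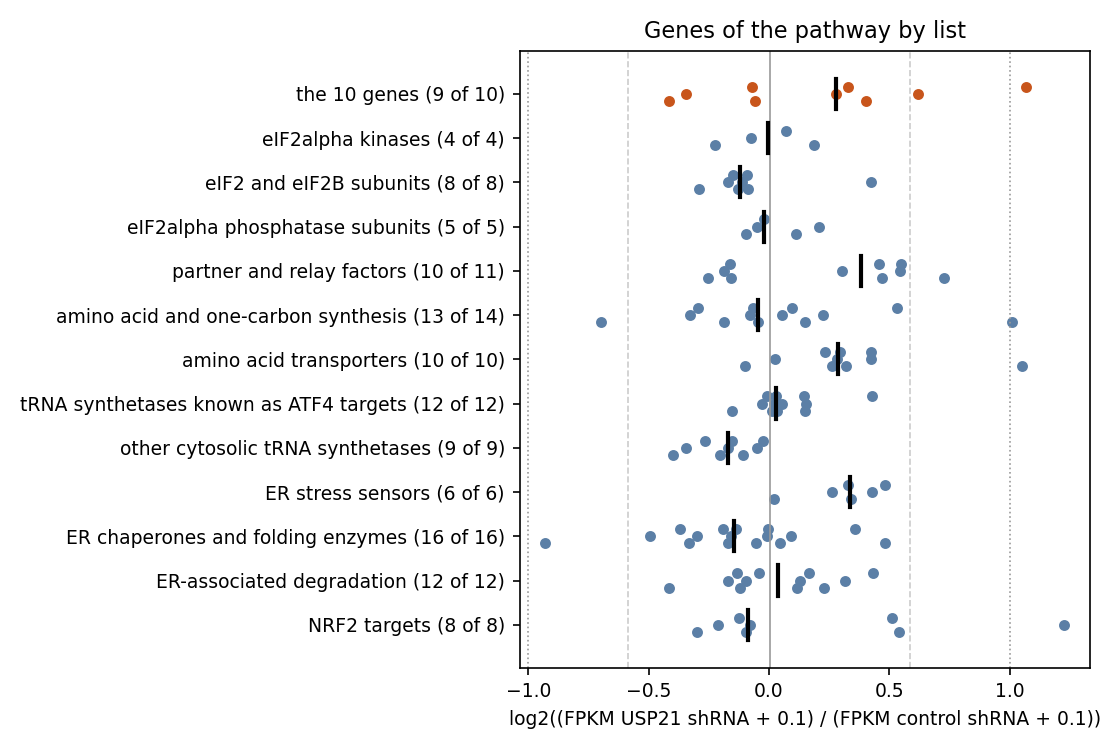
Log2 ratio of the genes in each list of the pathway, 1 point per gene with an FPKM of at least 1 in either library (number of these and number listed beside each name), with the list's median as a black bar. The solid line is the median of all genes tested (0.0031), and the dashed and dotted lines mark 1.5-fold and 2-fold. Partner and relay factors, amino acid transporters and ER stress sensors have medians of 0.29 to 0.38. The initiation factors, the other tRNA synthetases and the ER chaperones have medians of -0.12 to -0.17. With equal sums the medians of all lists and of all genes tested rise by about 0.18. The low medians then lie just above 0 and stay below that of all genes.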

How the data were processed

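The analysis covered 2 libraries of E14 mESCs, 1 per group. The authors deposited FPKM values, 1 per gene symbol and library. Per the submitters' processing notes these involved CASAVA 1.8.2, TopHat2 2.0.14, Cufflinks 2.2.1 and mm9. The annotation, strand setting and treatment of shared fragments are not given in the sources used here. Depth is unknown beyond the ratio between the libraries, so no counting interval was computed. Grouping followed the sample titles.

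Log2 ratios used a pseudocount of 0.1, and genes with an FPKM of at least 1 in either library were counted. The 500 nearest genes were taken by mean log2 level. No model was fitted between the groups. Transcript lengths (the transcript with the longest coding sequence), 31-base words and gene positions came from GENCODE M21 (GRCm38), and promoter windows from RefSeq (GRCm38.p6). The files hold no coordinates. Length and level trends were removed by lowess (span 0.3). The scripts were tested on simulated data. Python 3.11.15, numpy 2.4.6, pandas 2.3.3 and statsmodels 0.14.6 were used.

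The 10 genes and the other lists were chosen with earlier results of these data known. Besides the 10 genes, the rule named each listed gene past 2-fold, the highest and lowest ratio of a list and up to 4 more by level. Some genes that it names are not reported here, and Psph, Atf3, Slc38a1 and Slc1a4 were named after their values were seen.

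Alternatives were pseudocounts of 1 and 0.01, limits of FPKM 5 and 0.1, equal sums (TPM), a median ratio of 0, 200 or 1000 neighbours and the length correction. The level correction was added after seeing the data.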

Additional observations from a re-analysis of the deposited data

How the results depend on the processing

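No paired analysis was possible because each group has 1 library, and no library could be left out. Over the pseudocounts, scalings and corrections for length and level, the log2 ratio of Chac1 ranged from 0.97 to 1.24, of Trib3 from 0.59 to 0.80, of Ddit3 from 0.33 to 0.60, of Atf4 from 0.33 to 0.50, of Xbp1 from 0.27 to 0.45 and of Slc7a11 from 0.27 to 0.72. Psat1 ranged from -0.35 to -0.17 and Phgdh from -0.42 to -0.24. Asns and Hspa5 changed sign with equal sums (0.12 and 0.10) and with the level correction (0.09 and 0.16). The count of the 10 genes at least 2-fold higher was 0 in place of 1 with a pseudocount of 1 and with the level correction, where Chac1 was at 0.97 and 0.9987. The count past 1.5-fold was 3 in place of 2 with the length correction, which added Ddit3. Counts over all genes moved more. At least 2-fold higher were 108 with a pseudocount of 1, 443 with equal sums, 119 at FPKM 5 and 521 at FPKM 0.1, against 274, and 2-fold lower 100, 153, 97 and 459, against 242. At 1.5-fold the counts were 607, 1654, 496 and 1557 higher, against 927, and 512, 463, 408 and 1354 lower, against 771. The fibroblast list had a median of -0.49, or -1.69 at FPKM 5, where Thy1 alone was left. Of 272 recomputed values 253 moved by less than 1.5-fold, or by less than 5 percentage points for shares of neighbours. For ratios and medians that limit is a log2 difference of 0.585, and equal sums add only about 0.18. Such a scaling could not move a ratio or median past the limit, and the sign changes of Asns and Hspa5 fall within it. The tally is therefore no measure of how firm the ratios are.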

Other observations

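Targets of NRF2, the oxidative stress factor that shares Slc7a11 with ATF4, had no common direction. Of 8 genes listed 3 were above 0 and 5 below, with a median log2 ratio of -0.09, or 0.09 with equal sums. Slc48a1, a heme transporter, was 2-fold higher, at an FPKM of 6.96 in the control library and 16.4 in the knockdown library (log2 ratio 1.22), which exceeds the ratio of Chac1. Its exons overlap those of Hdac7 on the opposite strand. Hmox1, the heme oxygenase, was at 52.0 and 75.6 (0.54) and the log2 ratio of Srxn1, a sulfiredoxin, was 0.51. With equal sums both passed 1.5-fold (0.71 and 0.69), against 1654 of all 11927 genes tested. Hmox1 also passed after correction for length (0.63, against 838 of 11847 genes) or level (0.60, against 822 of 11927). Txnrd1 was at 111 and 104 (-0.10), Gclm at 41.0 and 38.8 (-0.08), and Gsr, the glutathione reductase, was lowest at -0.30.

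Of 10 reference genes listed, 9 reached an FPKM of 1, with a median log2 ratio of -0.12, or 0.05 with equal sums. B2m was lowest at -0.78 (35.0 and 20.4 FPKM). Gapdh was at 5149 and 4515 (-0.19), Ppia at 4658 and 4348 (-0.10) and Actb at 2096 and 1828 (-0.20). Hprt was at 0.658 and 0.665, the one reference gene below the limit in both libraries. A widely used subline of E14 lacks a working Hprt gene, and the labels do not name the subline.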
